A study of Mus musculus with 2 samples.

Results

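Interferons are cytokines that switch on a set of antiviral and antibacterial genes in nearly every cell type. The genes described here are families of this set in purified mouse collecting duct cells, together with 3 genes that share their naming. Members were taken by the gene name printed for each probe on the array: names beginning with Ifi, Ifit, Ifitm, Gbp or Irf and a digit, names beginning with Oas, Isg or Irgm, and a few full names, among them Mx1, Mx2, Stat2, Igtp, Iigp1, Usp18, Rsad2, Bst2, Xaf1 and Aim2. This gave 92 probes of 67 genes among the 30038 gene names on the array. Irf2bp1, Irf2bp2 and Isg20l2 met the naming rule, but the first 2 encode corepressors that bind IRF2 and the last a nucleolar exonuclease, so they were counted as members and kept apart from the families. The rule reads gene names and no measured value, but it was set with earlier results of these data known.

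The study compared collecting duct cells of wild-type mice with those of mice that had lost the transcription factor gene Gata2 in their renal tubules. The CKO label gives the genotype Gata2flox/-::Pax8-rtTA::Tet-Cre, that is 1 floxed and 1 null Gata2 allele, the doxycycline-dependent activator rtTA under the tubule promoter Pax8, and a Cre gene that it switches on. Cells outside the tubules therefore also had 1 Gata2 allele fewer than those of WT mice, and the WT label gives no transgene. Both groups were of mixed gender and 8 weeks old, and both labels carry the protocol of 4 weeks of doxycycline begun at an age of 4 weeks. No label gives the strain. Duct cells were enriched on magnetic beads through the lectin DBA, to which their surface binds, and the Cy3 labelling started from 50 ng of RNA. Per the design text 3 mice stood behind each genotype, and mixtures are what the array names describe. Each genotype was nevertheless read on only 1 array, so the differences lack a replicate check and a test across mice could not be made.

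A value is the scanner's processed signal of a 60-base probe in arbitrary linear units. A difference is the log2 value in CKO less that in WT, once each signal had been divided by its array's 75th percentile (314.3 for WT, 250.1 for CKO). Signals are printed before that division, so that equal relative levels appear somewhat lower on the CKO array. The ± values are the scanner software's error of the 2 spots, which covers neither mice nor purification. As a second yardstick, different probes of 1 gene, both well above background on both arrays, gave differences with a standard deviation (SD) of 0.27 over 5345 genes, and of 0.43 over the 14 member genes that had such probes. Probes called well above background reached down to signals of 11.7 (WT) and 11.6 (CKO), while negative control spots had median signals of 2.67 and 2.53. Where a probe passed on 1 array only, its difference is a bound, taken against that lowest signal or the probe's own signal on the other array, whichever was higher. Gata2 itself was at −0.37 ± 0.20 and −0.32 ± 0.20 by its 2 probes, at positions 3051 and 2578 of the transcript, and the labels do not say whether these positions were deleted, so the probes may not check the genotype.

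By textbook knowledge, type I interferons act through the kinases JAK1 and TYK2 on a complex that holds STAT2 and IRF9 and binds the interferon-stimulated response element (ISRE) of genes such as Isg15, the Ifit genes, Mx1 and the Oas genes. Interferon gamma, the type II interferon, acts through JAK1 and JAK2 and another element, the gamma-activated site (GAS), and strongly induces the guanylate-binding proteins and the immunity-related GTPases, partly through IRF1. The classes overlap, and tubule cells as well as macrophages, which lie beside the ducts, respond to both.

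Of the 67 member genes, 57 were well above background on at least 1 array, namely 53 on both, 1 in CKO alone and 3 in WT alone. Of the 92 probes, 15 passed on neither array. The 10 genes without a passing probe were Aim2, Gbp1, Ifi205, Ifi27l2b, Ifitm5, Ifitm6, Irf4, Oas1d, Oas1g and Oas1h, with signals of at most 8.76 in WT and 5.06 in CKO. At this signal a difference in these 10 was not detectable. The RefSeq table gives Gbp1 the symbol Gbp2b.

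Member genes lay slightly lower on the CKO array, with a median difference of −0.11 over the 57 measured genes, 38 of them lower and 19 higher. All 18870 measured genes had a median of 0.04, with 7954 lower and 10738 higher. A difference of 2-fold or more was seen in 2 members, upward in Ifi202b and downward in Ifi203. Over all genes 1.55% lay 2-fold or more above and 2.85% 2-fold or more below, so 1 of 57 members in each direction is close to the background. Of the 53 members measured on both arrays, 18 were lower by more than their spot error, or 34.0%, and 6 were higher, or 11.3%. The same shares over all 17591 genes measured on both arrays were 15.3% and 24.9%. Without the 3 genes outside the families the median was also −0.11.

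**Figure D1:**
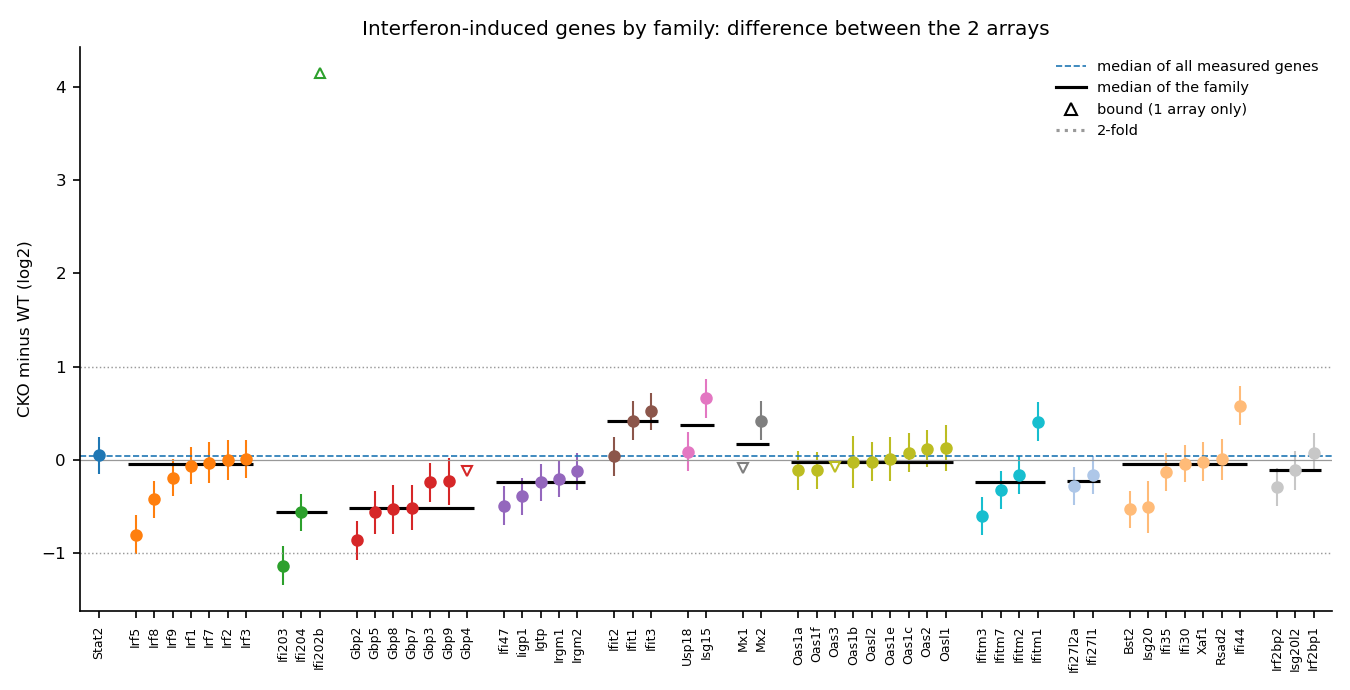
Difference between the CKO and WT arrays (vertical axis, log2) for the measured member genes reported here, grouped by family along the horizontal axis. Points are the brightest probe of a gene with bars for the spot error, open triangles are bounds, thick lines are family medians over all measured members, the dashed line is the median of all genes and the dotted lines mark 2-fold. The GBP and IRG genes all lie below 0 and the IFIT and ISG15 genes at or above it, and of the members only Ifi202b and Ifi203 lie beyond 2-fold.

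The families did not share 1 direction. The guanylate-binding proteins (GBP) had a median of −0.51 and the immunity-related GTPases (IRG) of −0.24, with every measured gene lower. For Gbp4 this was only a bound of −0.12. The 3 IFIT genes had a median of 0.42 and the ISG15 pair of 0.37, with every gene above 0. Of these, Ifit2 at 0.04 and Usp18 at 0.09 lay within their spot error and close to the 0.04 of all genes. The 9 measured OAS genes centred on −0.02 and the 8 IRF genes on −0.04. Relative to the median of all genes, which the choice of scaling shifts, IFIT ran from 0.27 to 0.38 and the ISG15 pair from 0.23 to 0.33 over the main setting and the 9 alternatives. The GBP family ran from −0.66 to −0.10, IRG from −0.38 to −0.26 and IFITM from −0.39 to −0.27, and OAS crossed it, from −0.10 to 0.03. Setting spike-in control transcripts equal moved the median of all genes from 0.04 to −0.50. The medians of IFIT and of the ISG15 pair then came to −0.12 and −0.17, below 0 but above all genes, and the members split into 54 lower and 3 higher, with 11 in place of 1 at least 2-fold lower. After cyclic loess 44 were lower and 13 higher. The directions below are on the 75th percentile scale.

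**Figure D2:**
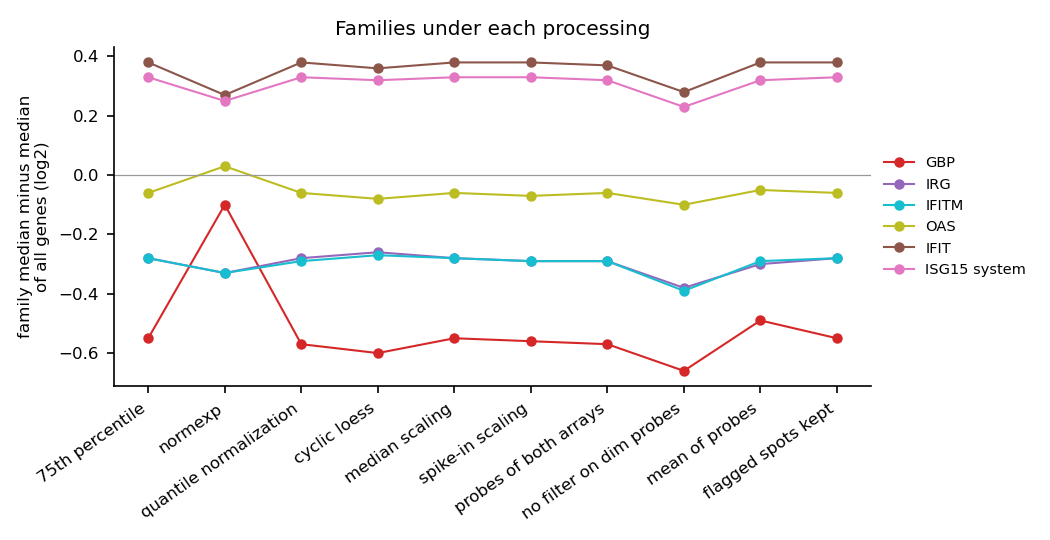
Median difference of 6 families minus the median of all genes (vertical axis, log2) under the 75th percentile scaling and each of the 9 alternatives (horizontal axis), 1 line per family. IFIT and the ISG15 system stay between 0.23 and 0.38 above all genes, IRG and IFITM stay between −0.39 and −0.26, and GBP lies at −0.10 with normexp and between −0.66 and −0.49 in the other settings.

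Stat2 and Irf9, partners in the complex that carries the type I signal, differed little. Stat2 had signals of 480 and 395, at 0.05 ± 0.20. Irf9 had signals of 751 and 523, at −0.19 ± 0.20, while its dimmer probe gave 0.17 ± 0.29. Neither partner thus differed by more than its error at its brightest probe.

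Among the other interferon regulatory factors, Irf1, an activator of GBP and IRG genes, had signals of 13200 and 10100, a difference of −0.06 ± 0.20, and −0.08 by its other probe. Irf2, which competes with IRF1, was at 0.00 ± 0.21, and Irf3, which sensors of viral nucleic acid activate, at 0.01 ± 0.20. Irf7, the amplifier of type I interferon production, was dim, with signals of 63.2 and 49.2, at −0.03 ± 0.22. These 4 factors did not differ beyond the spot error. Irf5 and Irf8 did: both are known for their roles in macrophages and dendritic cells. Irf5 had signals of 262 on the WT and 120 on the CKO array, at −0.80 ± 0.21. Irf8 had signals of 406 and 241, at −0.42 ± 0.20, and its other probe, with 81.5 and 30.8, gave −1.07 ± 0.24. Both probes of Irf8 were lower, by different amounts.

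Genes of macrophages and dendritic cells moved the same way. All 19 measured markers of 19 on the array were lower, with a median of −0.76, and their summed level, in units of the 75th percentile, was 195 on the WT and 109 on the CKO array. The macrophage lysozyme Lyz2 was at −1.26 ± 0.20, the integrin Itgam at −1.47 ± 0.30 and the chemokine receptor Ccr2 at least 2.22-fold lower. Lyz2 and Cd74, the latter at −0.65 ± 0.20 and named here for its signal, held the largest shares of both sums. All 19 were well above background on the WT array. In a bulk sample, fewer cells of a type and less RNA per cell cannot be told apart. What part the markers have in the differences of Irf5, Irf8 or any other member was not tested. The 12 collecting duct markers were all measured, with a median of −0.14 and summed levels of 1210 and 1164. Of these, 7 were lower and 5 higher. The brightest, and the largest single share of both sums, was the cadherin gene Cdh16 at 0.08. It was followed by the water channels Aqp3 at −0.43 and Aqp2 at −0.25. Furthest up, as picked out once the values were known, lay the intercalated cell genes Slc4a1 at 0.91 and Atp6v1g3 at 0.66. Furthest down, picked in the same way, lay Hsd11b2 at −0.61, Avpr2 at −0.57 and Scnn1g at −0.50, and Scnn1b was at −0.18. The labelled cell type was thus detected on both arrays.

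The p200 proteins carry HIN domains that bind DNA, mostly behind a pyrin domain, and several are nuclear regulators or sensors. Their genes form a cluster on chromosome 1, and the probes of the 5 members lie between 175395269 and 175956806 (mm9). They showed the largest differences of any family in both directions. Ifi203 had signals of 204 on the WT and 73.9 on the CKO array, a difference of −1.13 ± 0.21, but its other probe, with 17.1 and 22.2, gave 0.70 ± 0.38. The 2 probes of Ifi203 lie at different positions of the transcript, 3496 and 1026, and the direction of the gene rests on which one is taken. Ifi204 had signals of 481 and 259, at −0.56 ± 0.20, with −0.55 ± 0.21 and −0.70 ± 0.22 by its other probes. All 3 probes of Ifi204 were lower by more than their error. Genes of the cluster under older names, which the rule does not take, were lower as well. Mnda (Ifi211 in RefSeq) was at −0.95 ± 0.20, and the brightest probe of Pyhin1 (Ifi209 in RefSeq) at −0.34 ± 0.24. Another Pyhin1 probe passed on the WT array only, with 66.5 against 16.8, a bound of −1.65. A dimmer one gave −0.17 ± 0.34, within its error, so the size of the Pyhin1 difference depends on the probe.

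Ifi202b stood apart. This member lacks the pyrin domain and is known as an inhibitor of the AIM2 inflammasome, and its expression is known to be high in some inbred mouse strains and nearly absent in others. Its 1 probe had a signal of 2.59 in WT, next to the negative control median of 2.67, and of 166 in CKO. The gene was thus measured in CKO cells only and at least 17.8-fold higher there, or at least 4.15 on the log2 scale, and 2.08 after normexp background correction, which shrinks differences of dim signals. The measured signals, with no floor, were 6.33 apart. The labels give no strain, and whether the 2 groups differed in strain around this gene was not tested.

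The probe of Ifi202b spans 175892953 to 175893982 of chromosome 1 (mm9), so that its 60 bases cross at least 1 intron. Toward lower coordinates the nearest measured probes were those of Ifi203, at 26.2 kb with 0.70 and at 42.8 kb with −1.13, a probe named only by a transcript at 29.7 kb with −0.11, and Mnda at 63.9 kb with −0.95. Further out came a probe named only by a cDNA at 97.0 kb with −0.76, the 3 Ifi204 probes at 207.4 to 214.1 kb and another transcript's probe at 224.3 kb with −0.43. Toward higher coordinates Ifi205, at 63.3 kb, and the olfactory receptor genes Olfr433 and Olfr432 were well above background on neither array. Olfr430, at 106.6 kb, had signals of 223 and 209, a difference of 0.24 ± 0.21. Olfr429, at 126.0 kb, was the opposite of Ifi202b, with a signal of 94.5 in WT against 2.56 in CKO, and thus at least 6.50-fold lower in CKO cells. Within this stretch 1 gene was measured in CKO cells alone and 1 in WT cells alone, and the probes between them were at background or within 2-fold.

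**Figure D3:**
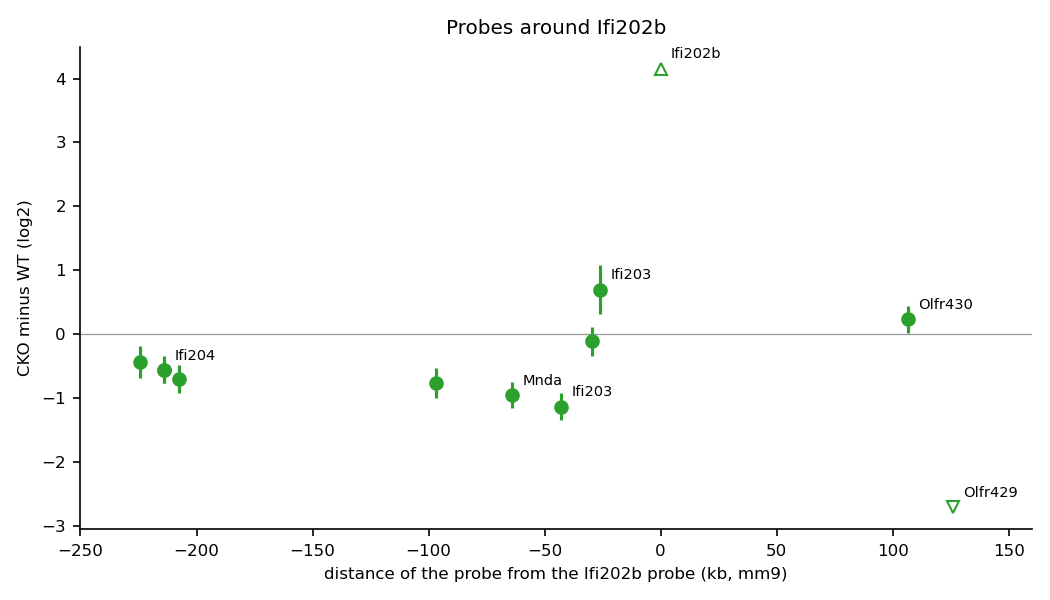
Difference between the arrays (vertical axis, log2) of each measured probe of the nearest genes around Ifi202b, against its distance from the Ifi202b probe (horizontal axis, kb on mm9). Points carry the spot error as bars and open triangles are bounds. Ifi202b lies at a bound of 4.15 and Olfr429 at a bound of −2.70, while the probes of Ifi204, Mnda and the brighter probe of Ifi203 lie between −1.13 and −0.55.

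The guanylate-binding proteins are large GTPases that assemble on vacuoles holding bacteria or parasites. All 7 measured genes were lower, 6 of them measured on both arrays and Gbp4 only by a bound. With normexp 2 of the 7 were higher. Gbp2 had signals of 247 on the WT and 109 on the CKO array, a difference of −0.86 ± 0.21. Gbp5 had 74.4 and 40.3, at −0.56 ± 0.23, Gbp7 had 55.1 and 30.7, at −0.51 ± 0.24, and Gbp8 had 45.0 and 24.9, at −0.53 ± 0.26. Gbp3 had 252 and 170, at −0.24 ± 0.21. These 5 genes were lower by more than their spot error, and Gbp9, with 52.9 and 35.9 at −0.23 ± 0.25, was not. Gbp4 passed on the WT array only, with 15.8 against 3.80, and was at least 1.09-fold lower. Outside the rule, Mpa2l (Gbp6 in RefSeq) passed on the WT array only, with 27.1 against 9.83, a bound of −0.90.

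Both GBP clusters held lower genes, but on chromosome 5 only Gbp8 was lower by more than its spot error. On chromosome 3 the 4 measured genes, Gbp2, Gbp3, Gbp5 and Gbp7, had a median of −0.53 over 116.0 kb, and on chromosome 5 the 3 genes Gbp4, Gbp8 and Gbp9 had one of −0.23 over 103.4 kb. How low the family lay depended on background correction, since most of its signals were dim. With normexp its median was −0.04, Gbp2 was at −0.59 and Gbp5 at −0.19, Gbp7 was at −0.04, and Gbp8 and Gbp9 crossed to 0.02 and 0.05. All 7 genes remained below the median of all genes, 0.06, in that setting.

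The immunity-related GTPases, which attack the same vacuoles, were all lower too, from −0.49 to −0.12. Their median of −0.24 lay above that of the GBP genes in the main setting, but below it with normexp, at −0.27 against −0.04. Ifi47 had signals of 226 on the WT and 128 on the CKO array, a difference of −0.49 ± 0.21, and Iigp1 had 515 and 313, at −0.39 ± 0.20. Igtp had 1210 and 819, at −0.24 ± 0.20, and the regulator Irgm1 had 907 and 628, at −0.20 ± 0.20, with −0.28 by its other probe. Irgm2 had 661 and 485, at −0.12 ± 0.20. All 5 stayed below 0 in each of the 9 alternatives, and those of Irgm1 and Irgm2 at their brightest probes were no larger than the spot error.

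The IFIT genes, whose products bind foreign RNA, lay the other way. They sit within 75.5 kb of chromosome 19. Ifit3 had signals of 383 on the WT and 437 on the CKO array, a difference of 0.52 ± 0.20, and Ifit1 had 102 and 109, at 0.42 ± 0.21. Ifit2 had 141 and 115 at its brighter probe, at 0.04 ± 0.21, and 44.7 and 63.3 at the other, at 0.83 ± 0.23. No IFIT probe was lower on this scale, and Ifit2 was at −0.02 after cyclic loess. Their neighbour I830012O16Rik (Ifit3b in RefSeq), outside the rule, was at 0.27 ± 0.23, and Gm14446 (Ifit1bl1 in RefSeq), also outside it and dim, was at −0.11 ± 0.41 by its 1 measured probe.

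Isg15, a ubiquitin-like protein that is coupled to other proteins, had signals of 140 on the WT and 176 on the CKO array, a difference of 0.66 ± 0.21, the largest upward at a gene's brightest probe among members measured on both arrays. Usp18, which removes ISG15 from its targets and damps the type I receptor, had 103 and 86.8, at 0.09 ± 0.21, within its error. Ifi44 had 119 and 141, at 0.58 ± 0.21. Mx2, a dynamin-like GTPase against viruses, had 117 and 125, at 0.42 ± 0.21, while Mx1 passed on the WT array only, with 15.5 against 5.43, a bound of −0.09. Isg15, Ifi44, Ifit1, Ifit3, Mx2 and Ifitm1 were the 6 members measured on both arrays that were higher by more than their spot error. With spike-in scaling Isg15 stayed above 0, at 0.12, and Ifi44 at 0.03, while Ifit1, Ifit3, Mx2 and Ifitm1 lay between −0.14 and −0.03, all above the −0.50 of all genes.

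The oligoadenylate synthetases, which on meeting viral RNA make a small messenger that starts the breakdown of RNA, were nearly level. Their 12 genes lie on chromosome 5. Oas2 had signals of 479 on the WT and 413 on the CKO array, a difference of 0.12 ± 0.20, and Oas1a had 248 and 183, at −0.11 ± 0.21. The 9 measured OAS genes ran from −0.11 to 0.13, and none measured on both arrays differed by more than its error. Oas3 passed in WT alone by 1 probe, with 15.3 against 8.73, and in CKO alone by the other, with 7.03 against 14.4, so that its direction is not settled.

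The IFITM proteins sit in membranes and block the entry of viruses. Ifitm3 had signals of 781 on the WT and 409 on the CKO array, a difference of −0.60 ± 0.20, while Ifitm1 had 212 and 224, at 0.41 ± 0.21. These neighbours on chromosome 7 differed in opposite directions, each by more than its error. Ifitm2 had 956 and 679, at −0.16 ± 0.20, and −0.13 by its other probe, which the files place elsewhere on the chromosome and which shares 27 bases in a row with a probe of another gene. Ifitm7 had 1200 and 767, at −0.32 ± 0.20. Paralogs of this family are close in sequence, so that a signal can come from more than 1 of them.

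The remaining effectors were mixed. Bst2, or tetherin, which holds budding viruses on the cell, had signals of 1310 on the WT and 722 on the CKO array, a difference of −0.53 ± 0.20. Isg20, an exonuclease, was dim, with 38.4 and 21.6 at −0.50 ± 0.28, and its other probe gave 0.11 ± 0.43. Rsad2, or viperin, was at 0.01 ± 0.22 and 0.38 ± 0.34 by its 2 passing probes. Xaf1 at −0.02, the lysosomal reductase Ifi30 at −0.04 and Ifi35 at −0.13 did not differ by more than their errors. Ifi27l1 (Ifi27 in RefSeq), a small membrane protein, had 2660 and 1900, at −0.16 ± 0.20, and Ifi27l2a had 2310 and 1510, at −0.28 ± 0.20, with −0.49 ± 0.20 by its other probe. Of the 3 genes outside the families, Irf2bp1 was at 0.08, Irf2bp2 at −0.29 and Isg20l2 at −0.11.

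**Figure D4:**
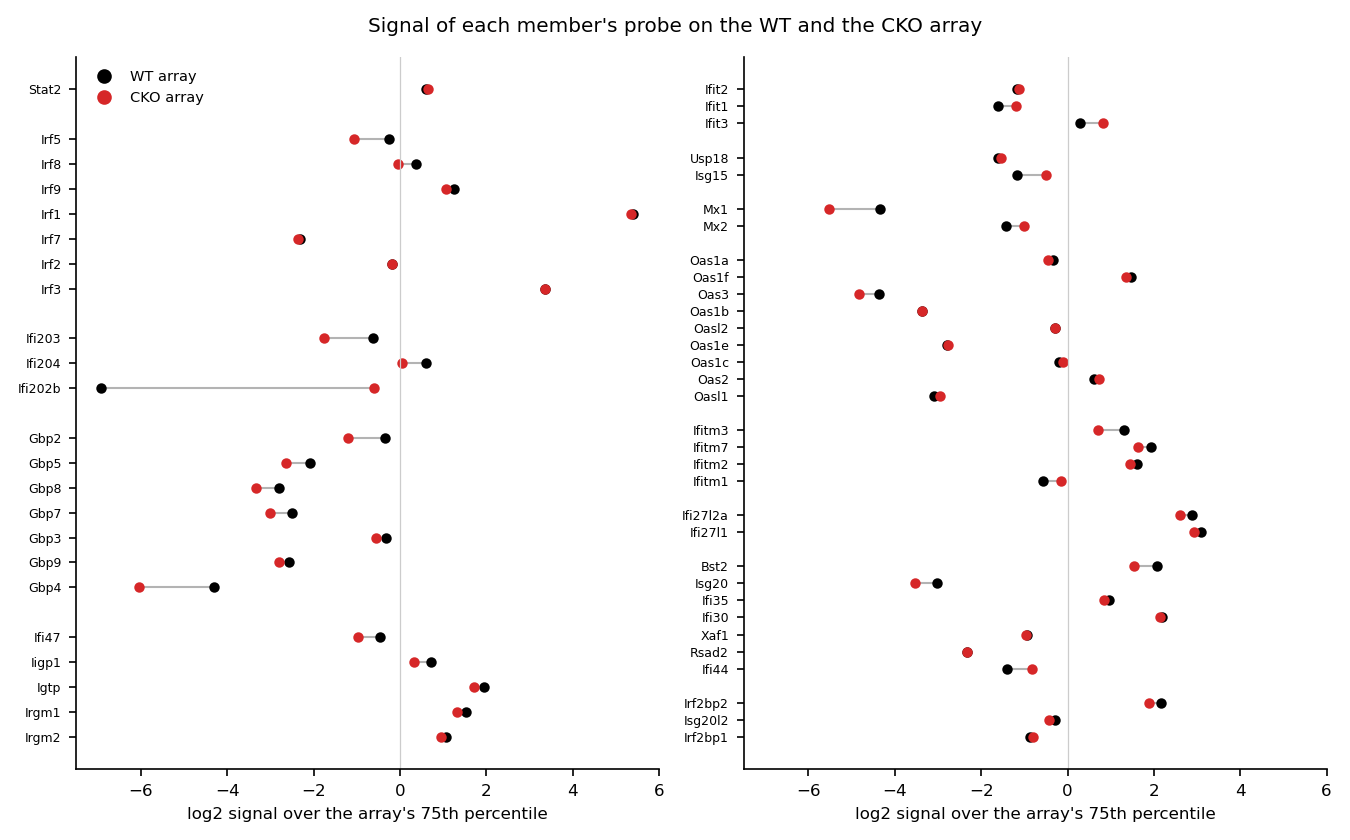
Signal of the probe used for each member drawn on the WT array (black) and the CKO array (red), as log2 of the signal over the 75th percentile of its array (horizontal axis), with 1 row per gene and the rows grouped by family. The points of Irf1, Irf2, Irf3 and Irf7 nearly coincide, those of the GBP genes lie apart with WT higher, those of Isg15, Ifi44, Ifit1 and Ifit3 lie apart with CKO higher, and Ifi202b has the widest gap.

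The promoters of the members were read for the motifs of both signalling branches, because both kinds of target gene are among them. Windows from 250 bases before to 50 bases after a gene's start were found for 50 of the 67 members in a RefSeq table (GRCm38.p6). The ISRE core was searched as GAAANNGAAA on both strands, where N is any base and cores may overlap each other, and the GAS core as TTCNNNGAA, which reads the same on both strands. An ISRE core was present in 23 of the 50 members, or 46.0%, against 3.99% of the 27025 genes with a window, and a GAS core in 16, or 32.0%, against 9.55%. All 5 GBP genes with a window held an ISRE core, as did 3 of 4 IRG, 2 of 3 IFIT and 4 of 8 OAS genes and Isg15. The following stretches are shown as examples from genes described above, of the IFIT, ISG15, GBP and p200 families, and were picked with the differences known. The ISRE cores are in capitals, and a core on the other strand reads with TTTC at both ends.
Isg15, chr4:156200855-156200916, minus strand: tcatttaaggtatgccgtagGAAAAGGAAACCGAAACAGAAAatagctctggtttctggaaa
Ifit1, chr19:34640765-34640833, plus strand: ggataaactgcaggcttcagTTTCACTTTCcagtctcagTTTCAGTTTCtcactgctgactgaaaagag
Ifit3, chr19:34583353-34583436, plus strand: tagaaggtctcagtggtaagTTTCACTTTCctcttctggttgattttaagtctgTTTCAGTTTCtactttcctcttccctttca
Gbp2, chr3:142620584-142620633, plus strand: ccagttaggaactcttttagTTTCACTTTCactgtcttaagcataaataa
Gbp5, chr3:142496749-142496798, plus strand: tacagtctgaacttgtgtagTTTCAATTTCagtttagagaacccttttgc
Gbp7, chr3:142530263-142530312, plus strand: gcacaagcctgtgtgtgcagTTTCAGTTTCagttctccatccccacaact
Ifi203, chr1:173942498-173942547, minus strand: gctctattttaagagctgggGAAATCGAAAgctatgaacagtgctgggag

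The windows of Isg15, Ifit1 and Ifit3, which were higher in CKO cells, held 3, 2 and 2 cores, overlapping in Isg15. Those of Gbp2, Gbp5, Gbp7 and Ifi203, which were lower at their brightest probes, held 1 each. Other lower genes, Ifitm3, Bst2, Gbp3 and Irgm1, held 2 each, so the number of cores did not separate higher from lower genes. Over all measured members with a window, the 20 with an ISRE core had a median difference of −0.14, from −1.13 to 0.66, with 13 lower and 6 higher, and the 22 without one had a median of −0.05. The 15 with a GAS core had a median of −0.13 and the 27 without one of −0.04. The presence of either core thus did not separate higher from lower members. A match is only a run of letters and no match says nothing about a factor.

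Igtp and Irgm2, both on chromosome 11 and at −0.24 and −0.12, are shown because they carry the ISRE core in almost the same surroundings.
Igtp, chr11:58199502-58199551, plus strand: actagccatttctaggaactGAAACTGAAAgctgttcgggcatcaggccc
Irgm2, chr11:58214893-58214942, plus strand: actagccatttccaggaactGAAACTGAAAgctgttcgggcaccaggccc

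The window of Ifi202b held no ISRE core but a GAS core, in capitals, 148 bases before the start.
Ifi202b, chr1:173982964-173983012, minus strand: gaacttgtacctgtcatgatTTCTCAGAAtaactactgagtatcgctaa

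Upstream of the members, transcripts of the interferons were near or below detection. Of 12 ligand genes on the array 6 were measured, none with a signal above 61.1, and their median difference was 0.04. The brightest were Ifnz at 0.31 ± 0.22, Ifna9 at −0.28 ± 0.26 and Ifna2 at −0.09 ± 0.26, and the many alpha interferon genes are too alike for short probes to separate with certainty. Ifnb1, with 2.98 and 2.79, and Ifng, with 2.83 and 2.76, were at background on both arrays, so no difference was detectable there. All 9 receptor and JAK genes were measured, with a median of −0.09, among them Ifngr1 at 0.11, Il10rb at −0.26 and Jak1 at −0.04. Ifnlr1, the epithelial receptor of the lambda interferons, had signals of 329 on the WT and 377 on the CKO array, at 0.53 ± 0.20. It was picked after its value was seen, as the widest difference of this list.

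The 15 sensors and adaptors that lead to interferon production had a median of −0.04, with 9 lower and 6 higher, among them Mavs at 0.14, Tlr9 at 0.12 and Ddx58, the RNA sensor RIG-I, at 0.28. The widest differences of this list, picked out with the values known, were downward, with the RNA sensor Tlr7 at −0.72 ± 0.21, the DNA sensor Cgas at −0.44 ± 0.25 and the RNA sensor Ifih1 at −0.42 ± 0.20. Of the 11 negative regulators 10 were lower and 1 higher, with a median of −0.05, among them Ptpn11 at −0.01, Cish at −0.59 and Pias2 at −0.05. Socs3, named after its value was seen, had signals of 1650 and 717, at −0.87 ± 0.20. None of these lists held a gene 2-fold apart.

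Other interferon-induced genes outside the rule lay lower than the members. Of 46 on the array 44 were measured, 35 of them lower and 9 higher, with a median of −0.31, or −0.13 with normexp, against 0.04 and 0.06 for all genes. The chemokine Cxcl10 had the widest difference, with signals of 1550 on the WT and 330 on the CKO array, a difference of −1.90 ± 0.20. Genes of antigen processing, which interferon gamma induces and which were picked after their values were seen, were mostly lower, with Psmb8 at −0.71, Psmb10 at −0.43, Psmb9 at −0.31, Tap1 at −0.37 and Tap2 at −0.29, but Tapbp at 0.05. Ly6e and Ly6a, picked in the same way, were at −0.15 and 0.42.

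**Figure D5:**
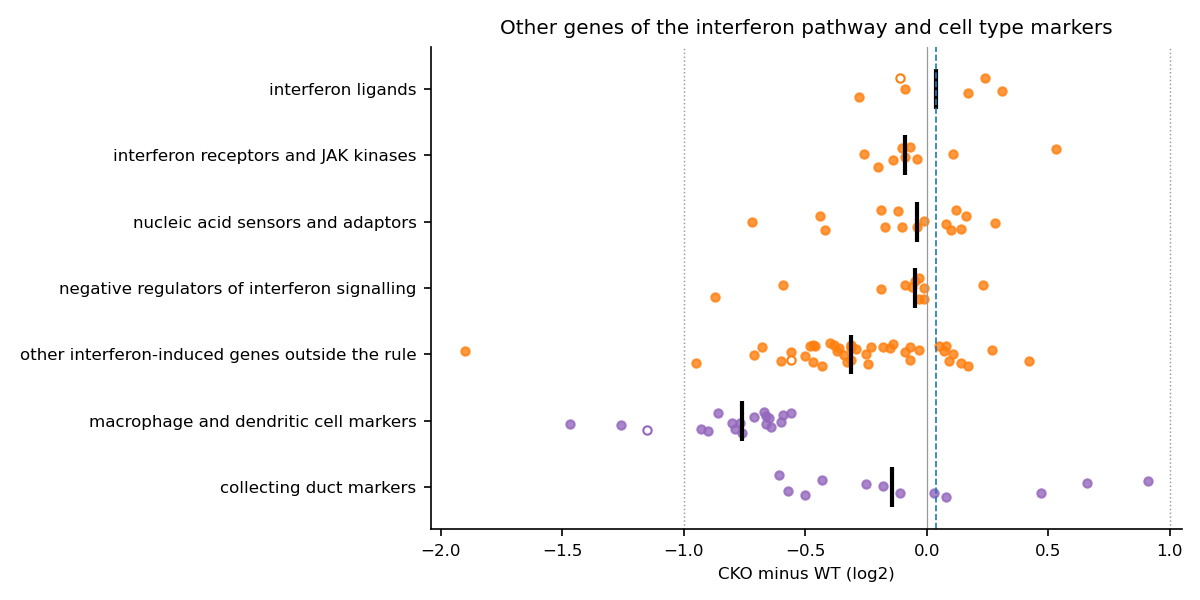
Difference between the arrays (horizontal axis, log2) of measured genes of 5 interferon pathway lists (orange) and of the macrophage and collecting duct markers (purple), 1 row per list. Black bars are medians over all measured genes of a list, open points are bounds, the dashed line is the median of all genes and the dotted lines mark 2-fold. All 19 macrophage and dendritic cell markers lie below −0.5, and the medians of the receptor, sensor and regulator lists lie between −0.09 and −0.04.

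Markers of other cells that the beads could carry were also measured. Those of endothelium had a median of −0.36 over 9 of 10 genes, of fibroblasts and pericytes −0.63 over 8 of 9, of podocytes −1.21 over 5 of 5 and of proximal tubule −0.24 over 7 of 7. Endothelial, fibroblast and podocyte markers were at 0.00, −0.15 and −0.32 with normexp, and the macrophage markers at −0.65. The 7 measured of 13 markers of lymphocytes, NK cells and neutrophils had a median of 0.00, which rests on the bound of Cd4, and one of −0.60 with no filter on dim probes. Of these the T cell gene Cd8a passed in WT alone, with a bound of −3.34, and the neutrophil gene S100a9 likewise, with one of −1.52. Thick ascending limb and distal tubule gave −0.09 over 5 of 5 genes, and red blood cells −1.41 over 2 of 4. Of the markers of plasmacytoid dendritic cells, the main source of type I interferon in blood, 2 of 5 were measured, with a median of 0.12, and the defining Siglech was at background on both arrays, with 2.44 and 2.34. The summed level of the endothelial markers was 1.97 and 1.14 and that of the fibroblast markers 22.0 and 20.3, most of it from Acta2, which was at 0.05 while 6 of the other genes were lower. These compare with 1210 and 1164 for the collecting duct markers.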

How the data were processed

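A linear intensity for every spot of 2 Agilent 1-colour arrays, 1 of WT and 1 of CKO cells, was deposited as scanner output. Agilent Feature Extraction 10.7.3.1 had produced these values, subtracting background and trends across the slide, and mm9 is the build of the probe positions, per the file headers. The slide and the scan were the same for both genotypes. How the authors normalized between arrays: not given in the sources used here.

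Besides controls, an array carried 43379 spots for 41174 probes. Of these spots 64.1% (WT) and 62.4% (CKO) were well above background, 0 were saturated, and 66 and 73 carried outlier flags and were left out, none of them on a member probe. Processed signals were divided by their array's 75th percentile, log2-transformed and averaged over the spots of a probe. Each gene was represented by its brightest probe that passed the background call on either array, and list medians include bounds. With 1 array per genotype there was nothing to test, 2-fold is only a size, and precision is limited by having 2 arrays.

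The members and the lists were chosen with earlier results of these data known. The genes named are all members, Gata2, the genes of each list 2-fold apart or otherwise its 3 brightest, and the nearest genes around Ifi202b; exceptions are marked, and of the lists of other cells only immune genes and duct markers are named. Some genes that the rule takes are left out of the text and figures and are not reported here. RefSeq accessions of 83 of the 92 member probes matched a table of GRCm38.p6, used for current symbols and promoter windows only. Whether a probe lies in an untranslated region was not analysed here. The planned comparison of probes with RefSeq proteins was not run, and runs of 20 or more bases shared by a member probe and a probe of another gene were searched instead. Besides the Ifitm2 probe, 1 was found, at Ifi27l2a, with 21 bases.

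The alternatives were normexp background correction (offset 50), scaling by cyclic loess, by quantiles, by the median or by 8 spike-in transcripts, 2 other filters on dim probes, the mean of a gene's probes, and keeping flagged spots. The steps were tested on simulated data, with planted changes above 2-fold and noise below the spread between probes. That test does not cover changes as small as most of those described here. The tools were limma 3.58.1 in R 4.3.3 and, in Python 3.11.15, pandas 2.3.3, numpy 2.4.6 and matplotlib 3.10.9.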

Additional observations from a re-analysis of the deposited data

How the results depend on the processing

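Neither Ifi202b nor Ifi203 changed sign in any of the 9 alternatives that gave it a value. For Ifi203 all but the mean of probes rest on its brightest probe, so they cannot check the choice of probe. The count of members at least 2-fold higher was 1, but 0 on probes of both arrays, where Ifi202b has no value, and 2 with no filter on dim probes, which adds Gbp1. The count at least 2-fold lower was 1, but 0 with normexp or with the mean of probes, 5 with no filter and 11 with spike-in scaling. Spike-in scaling moved the members' median from −0.11 to −0.65, with that of all genes at −0.50. By family it gave −0.59 for IRF, −1.11 for p200, −0.79 for IFITM, −0.12 for IFIT, −0.57 for OAS, −1.06 for GBP, −0.78 for IRG, −0.17 for the ISG15 system, −0.38 for MX, −0.77 for IFI27, −0.59 for other effectors and −0.66 for the 3 genes outside the families. The p200 median was −0.85 on probes of both arrays and −0.21 with the mean of probes, where Ifi203 came to −0.21. The GBP median was −0.04 with normexp, and the MX median −0.38 with no filter. The mean of probes also moved Irf8 to −0.75 and Ifit2 to 0.44. Quantile normalization, cyclic loess, median scaling and keeping flagged spots moved none of the family medians or single members by more than the probe spread or spot error. Leaving out Ifi202b or the 3 genes outside the families left the members' median at −0.11, and it ran from −0.17 to −0.04 over all alternatives but spike-in scaling.

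No paired analysis was possible because each genotype has 1 array. Differences of probes near the lowest signal well above background, such as those of Gbp4, Mx1 and Oas3, cannot be resolved at this signal. Strain, mouse, purification and labelling cannot be told apart from genotype.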
